A study of Homo sapiens with 12 samples.

Results

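The E2F and RB family comprised 10 genes chosen by symbol: the transcription factors E2F1, E2F2, E2F3, E2F4, E2F7 and E2F8, the pocket protein genes RB1, RBL1 and RBL2, and LIN9, a core subunit of the MuvB complex. Each symbol matched 1 Ensembl ID, so 10 of 60651 genes in the deposited count table were members, and all 10 passed the filter on low counts in both cell lines. The question was how the transcripts of this cell cycle switch stood after decitabine, an inhibitor of DNA methyltransferases, and talazoparib, an inhibitor of PARP, in cholangiocarcinoma cells. EGI-1 cells, labelled wild type, received vehicle, 0.5 µM decitabine, 200 nM talazoparib or both, and HUCCT1 cells, also labelled wild type, received vehicle (DMSO) or 1 µM decitabine. All cells were harvested at 72 h, RNA was sequenced in 2 libraries per group, and the 12 libraries held 23139065 to 34965627 counts each. Nothing in the labels says that the 2 libraries of a group came from separate cultures, so p-values measure the spread between these libraries, which may be technical. Decitabine dose and the form of the library names differ with the cell line and cannot be told apart from it. The names of both talazoparib libraries carry the number 50, while the treatment text gives 200 nM.

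Markers of biliary epithelium were checked first, because both lines are labelled as cholangiocarcinoma cells. All 7 markers, among them the keratin genes KRT7 and KRT19 and the adhesion gene EPCAM, were detected in every group, with summed levels of 7721 to 16230 CPM (counts scaled to library size), while the 4 hepatocyte markers summed to at most 0.232 CPM. One library stood apart: replicate 2 of the EGI-1 combination held 381 counts of the leukocyte gene PTPRC and 148 of the T cell gene CD3E, where the other EGI-1 libraries held 1 to 7 and 0 to 4. Its leukocyte sum was 22.9 CPM, against 2.58 to 4.93 CPM in the other 11 libraries. Calls of the members and counts of the gene lists in the combination are therefore also given without this library.

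In the textbook cell cycle, unphosphorylated RB proteins bind E2F factors at promoters and keep genes for DNA replication off, and cyclin-dependent kinases release them before S phase. E2F1, E2F2 and E2F3 act mainly as activators and are held by RB1, E2F4 acts with RBL1 (p107) and RBL2 (p130) as a repressor in resting cells, and E2F7 and E2F8 repress without binding RB proteins. With RBL2 or RBL1 and E2F4 the MuvB core, which contains LIN9, forms the DREAM repressor, and with MYBL2 and FOXM1 it activates G2/M genes. Several members, E2F1 among them, are themselves known targets of this switch.

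The promoters of 4 members are shown because they hold E2F letters and sit upstream of genes that moved in these data (E2F1, E2F2, RBL1) or did not pass the test against vehicle in either line (E2F3). RefSeq promoters (GRCh38.p14, 250 bases before to 50 after the annotated start) were matched for 9 of 10 members; there was no entry for E2F8, and the RB1 entry was an internal start. Both strands were searched for TTTCGCGC, TTTGGCGC and TTTCCCGC (E2F letters) and for TTTGAA and TTCGAA (the CHR element of MuvB complexes), and matches are in capitals in the sequences, which are written on the strand of the gene.
E2F1, chr20:33686336-33686635, minus strand: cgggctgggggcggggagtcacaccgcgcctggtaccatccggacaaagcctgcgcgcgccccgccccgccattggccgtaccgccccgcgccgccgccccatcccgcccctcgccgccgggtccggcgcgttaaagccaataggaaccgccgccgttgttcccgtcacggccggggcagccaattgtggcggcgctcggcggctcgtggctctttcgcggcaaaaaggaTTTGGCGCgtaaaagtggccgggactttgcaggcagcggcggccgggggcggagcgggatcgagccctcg
E2F2, chr1:23531184-23531483, minus strand: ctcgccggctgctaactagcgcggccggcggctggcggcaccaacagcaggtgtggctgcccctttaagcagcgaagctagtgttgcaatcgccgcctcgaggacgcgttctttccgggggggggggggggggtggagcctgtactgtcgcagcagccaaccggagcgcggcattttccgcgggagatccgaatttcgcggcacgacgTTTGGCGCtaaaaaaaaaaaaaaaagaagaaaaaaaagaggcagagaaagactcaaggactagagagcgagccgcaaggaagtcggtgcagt
E2F3, chr6:20401629-20401928, plus strand: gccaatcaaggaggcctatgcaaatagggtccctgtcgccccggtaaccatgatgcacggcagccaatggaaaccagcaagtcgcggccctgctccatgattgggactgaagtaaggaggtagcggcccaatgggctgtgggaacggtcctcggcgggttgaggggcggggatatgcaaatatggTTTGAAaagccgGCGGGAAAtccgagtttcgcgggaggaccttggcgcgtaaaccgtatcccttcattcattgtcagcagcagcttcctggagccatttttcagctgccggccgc
RBL1, chr20:37095948-37096247, minus strand: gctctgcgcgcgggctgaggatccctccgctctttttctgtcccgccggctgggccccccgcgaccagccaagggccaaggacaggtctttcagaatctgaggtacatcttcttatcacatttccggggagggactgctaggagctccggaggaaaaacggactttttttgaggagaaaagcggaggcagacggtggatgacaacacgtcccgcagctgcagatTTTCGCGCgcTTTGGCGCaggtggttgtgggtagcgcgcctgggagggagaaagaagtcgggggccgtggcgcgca
E2F1 held TTTGGCGC at -20 to -13 from the start and E2F2 held it at -42 to -35. RBL1 held 2 sites, TTTCGCGC at -26 to -19 and TTTGGCGC at -16 to -9, and E2F3 held TTTCCCGC on the other strand at -53 to -46 beside TTTGAA at -65 to -60 in 1 of its 2 windows, the one shown, and none of these letters in the other. E2F4, E2F7, RBL2 and LIN9 held none of the 3 E2F sites in the windows given. Of these, E2F7 and LIN9 were also lower in HUCCT1 after decitabine (log2 fold changes -0.65 and -0.53), and E2F4 and RBL2 passed against vehicle in neither line. RBL2 held TTTGAA at 25 to 30 in 1 of its 2 windows, and LIN9 held both CHR elements in 1 of its 3. Of 35116 promoters of this length, 2.74% held any of the 3 E2F sites and 16.4% either CHR element, of which TTTGAA alone was in 15.2%. A match is a description of letters and not of binding.

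In the untreated state all 10 members were expressed in both lines, at different shares and levels. Per exon length (FPKM, CPM per kilobase of merged exons), E2F4 was the most abundant E2F in EGI-1 vehicle cells at 50.3 ± 0.749 (SD, n = 2), or 39.3% of the summed level of the 6 E2F genes. In HUCCT1 vehicle cells E2F1 led at 58.2 ± 3.09, or 35.3% of the sum, followed by E2F7 at 43.9 ± 0.288 and E2F4 at 34.5 ± 4.12. E2F2 was the least abundant E2F in both lines, at 2.81 ± 0.0684 in EGI-1 and 6.27 ± 0.391 in HUCCT1. Among the pocket proteins RBL2 led in EGI-1 with 47.4% of the summed FPKM, whereas RB1 (38.1%) and RBL1 (36.0%) led in HUCCT1. LIN9 was low in both lines, at 4.17 ± 0.036 and 3.73 ± 0.246.

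Between the vehicle groups 9 of 10 members differed by edgeR's quasi-likelihood test, 5 higher and 4 lower in HUCCT1. Of all genes tested 55.8% differed, 28.5% higher and 27.3% lower, so the lines were unlike in most of the transcriptome. E2F7 stood at 88.4 and 92.1 CPM in EGI-1 and at 278 and 275 CPM in HUCCT1, a log2 difference of 1.60 ± 0.078 (SE, n = 2 per line). E2F2 (log2 difference 1.14 ± 0.103), E2F1 (0.95 ± 0.096), RB1 (0.50 ± 0.112) and RBL1 (0.30 ± 0.102, adjusted p = 0.0176) were also higher in HUCCT1. RBL2 was lower (log2 difference -0.97 ± 0.083), with 96.6 and 100.5 CPM in EGI-1 and 51.7 and 49.95 CPM in HUCCT1, and E2F4 (-0.56 ± 0.091), E2F8 (-0.56 ± 0.080) and E2F3 (-0.46 ± 0.076) were lower as well. The repressors E2F7 and E2F8 therefore differed in opposite directions. LIN9 did not pass the test (-0.18 ± 0.112, adjusted p = 0.174). With upper-quartile scaling, which moved the median of all genes in this comparison from -0.0084 to -0.13, the RBL1 difference was 0.18 (adjusted p = 0.149), and without HUCCT1 vehicle replicate 1 or EGI-1 vehicle replicate 1 it was 0.26 (adjusted p = 0.0884) or 0.23 (adjusted p = 0.174).

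**Figure D1:**
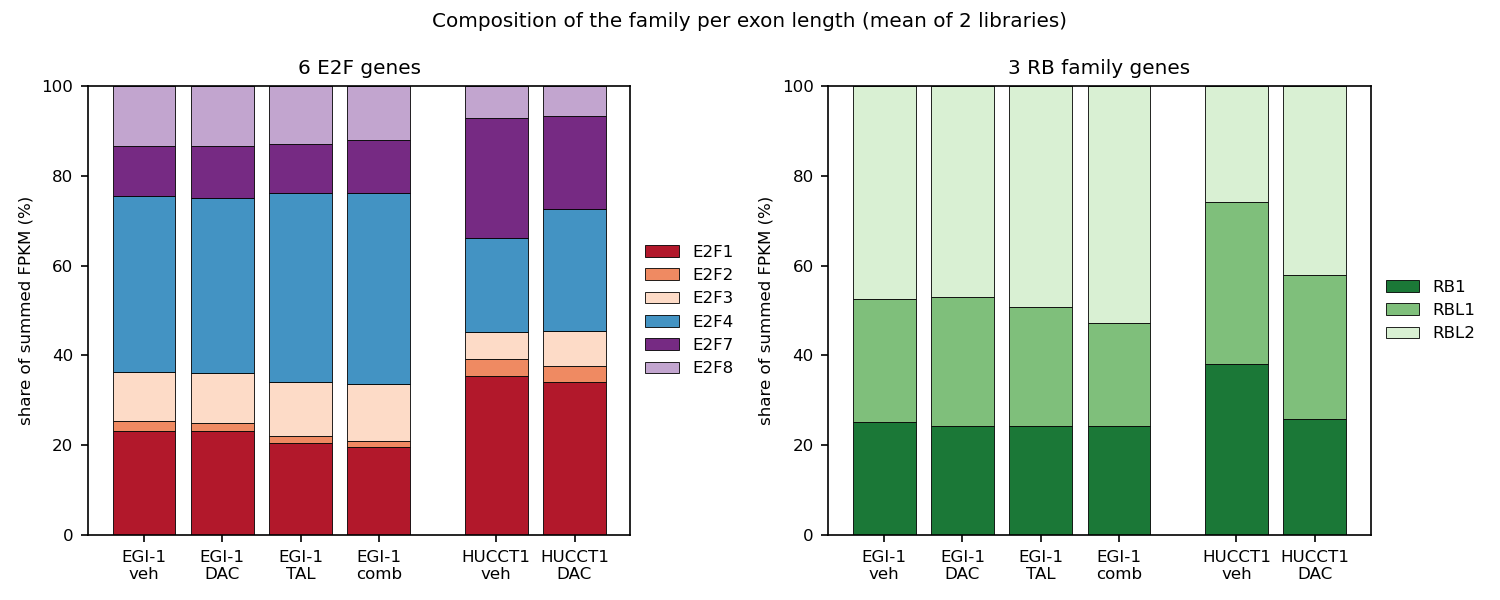
Share of each gene in the summed FPKM (%, y axis) of the 6 E2F genes (left) and the 3 RB family genes (right), as the mean of 2 libraries in each of 6 groups (x axis; veh vehicle, DAC decitabine, TAL talazoparib, comb both drugs). E2F4 is the widest band in EGI-1 (39.3% in vehicle) and E2F1 in HUCCT1 vehicle (35.3%), and RB1 falls from 38.1% to 25.8% of the RB family in HUCCT1 after decitabine.

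Decitabine in HUCCT1 lowered 7 of the 10 members and raised none by edgeR's test. Across all genes 33.5% were called, 19.6% higher and 13.9% lower. The pocket protein genes RB1 and RBL1 fell most, followed by the repressor E2F7 and by LIN9, and the activators E2F1 and E2F2 and the repressor E2F8 fell by less, while E2F3, E2F4 and RBL2 did not pass the test. The median log2 fold change of the 10 members was -0.385, against 0.0020 over all genes tested. In bulk RNA, fewer cells of a type and less RNA per cell cannot be told apart.

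RB1, the retinoblastoma gene (chr13:48303744-48599436), stood at 64.7 and 54.4 CPM in the vehicle libraries and at 27.4 and 23.3 CPM after decitabine. Both treated libraries lay below both vehicle libraries and below every EGI-1 library (35.3 to 43.3 CPM). The level was 0.434 of vehicle (log2 fold change -1.20 ± 0.127, SE, n = 2 per group, adjusted p = 3.7e-08). RBL1, which encodes p107 (chr20:36996349-37095997), fell from 53.8 and 50.2 CPM to 28.6 and 29.6 CPM, to 0.569 of vehicle (-0.81 ± 0.116, adjusted p = 4.5e-06). RBL2, which encodes p130 (chr16:53433977-53491648), had 51.7 and 49.95 CPM in vehicle and 54.2 and 50.4 CPM after decitabine, so its groups overlapped (0.067 ± 0.113, 95% interval -0.17 to 0.30, adjusted p = 0.697). RBL2 shares 609 exon bases (7.51% of its exons) with AKTIP and 721 (8.89%) with an unnamed gene, both on the opposite strand. These held 7599 and 332 counts in total over the 12 libraries, against 29688 for RBL2. RBL1 shares 213 exon bases (3.58%) with an unnamed noncoding gene on the opposite strand, which held 54 counts against 14267 for RBL1. Whether the counting used strand is not stated. Within the RB family, RB1 went from 38.1% to 25.8% of the summed FPKM and RBL2 from 25.9% to 42.2%, and the sum went from 23.04 to 25.5 FPKM in vehicle to 14.8 to 15.8 FPKM after decitabine.

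Among the E2F genes the repressor E2F7 (chr12:77021248-77065569) fell most, from 278 and 275 CPM to 178.1 and 168.1 CPM, or 0.638 of vehicle (-0.65 ± 0.106, adjusted p = 2.7e-05). Its lowest HUCCT1 library still lay above the highest EGI-1 library, at 101 CPM. E2F8, the related repressor (chr11:19224063-19241620), went from 49.9 and 46.9 to 37.8 and 35.6 CPM (-0.37 ± 0.115, adjusted p = 0.0141). E2F1 (chr20:33675477-33686385) went from 150.6 and 162.3 to 116 and 129 CPM (-0.33 ± 0.108, adjusted p = 0.0212) and E2F2 (chr1:23506438-23531233) from 32.8 and 35.8 to 25.9 and 25.2 CPM (-0.40 ± 0.120, adjusted p = 0.0118). For all 4 genes the groups did not overlap. The third activator, E2F3 (chr6:20401879-20493714), had 53.9 and 51.2 CPM in vehicle and 56.2 and 52.6 CPM after decitabine, which overlap (0.077 ± 0.112, adjusted p = 0.644). E2F4 (chr16:67192155-67198918), the repressive partner of p107 and p130, had 114 and 134 CPM against 118 and 143 CPM (0.10 ± 0.116, adjusted p = 0.551). LIN9 (chr1:226231149-226309869) fell from 17.3 and 15.8 to 11.6 and 10.9 CPM, or 0.691 of vehicle (-0.53 ± 0.141, adjusted p = 0.00427).

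The calls for RB1, RBL1, E2F7 and LIN9 held in each of the 4 fits without 1 HUCCT1 library. E2F1 missed the threshold without HUCCT1 decitabine replicate 1 (-0.26, adjusted p = 0.216) and without HUCCT1 vehicle replicate 2 (-0.28, adjusted p = 0.127). E2F2 missed it without HUCCT1 vehicle replicate 2 (-0.35, adjusted p = 0.0818) and without HUCCT1 decitabine replicate 2 (-0.37, adjusted p = 0.0833), and E2F8 without HUCCT1 vehicle replicate 1 (-0.34, adjusted p = 0.0803) and without HUCCT1 decitabine replicate 2 (-0.32, adjusted p = 0.131). Other transcripts moved with the same treatment: the biliary marker sum went from 14570 to 16230 CPM in vehicle to 8629 to 10030 CPM after decitabine, with 5 of 7 markers lower. The fibroblast sum was at most 37.6 CPM in vehicle and reached 194.1 CPM after decitabine, and the collagen gene COL1A1 went from 805 and 896 counts to 5089 and 5611 counts, with 3 of 4 tested markers higher and 1 lower, and the endothelial sum from 4.22 to 5.502 CPM to 25.2 to 26.6 CPM, with 4 of 4 higher. The fibroblast gene DCN was at 0 in both vehicle libraries and at 12 and 7 counts after decitabine. The part of these transcripts in the result was not tested.

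**Figure D2:**
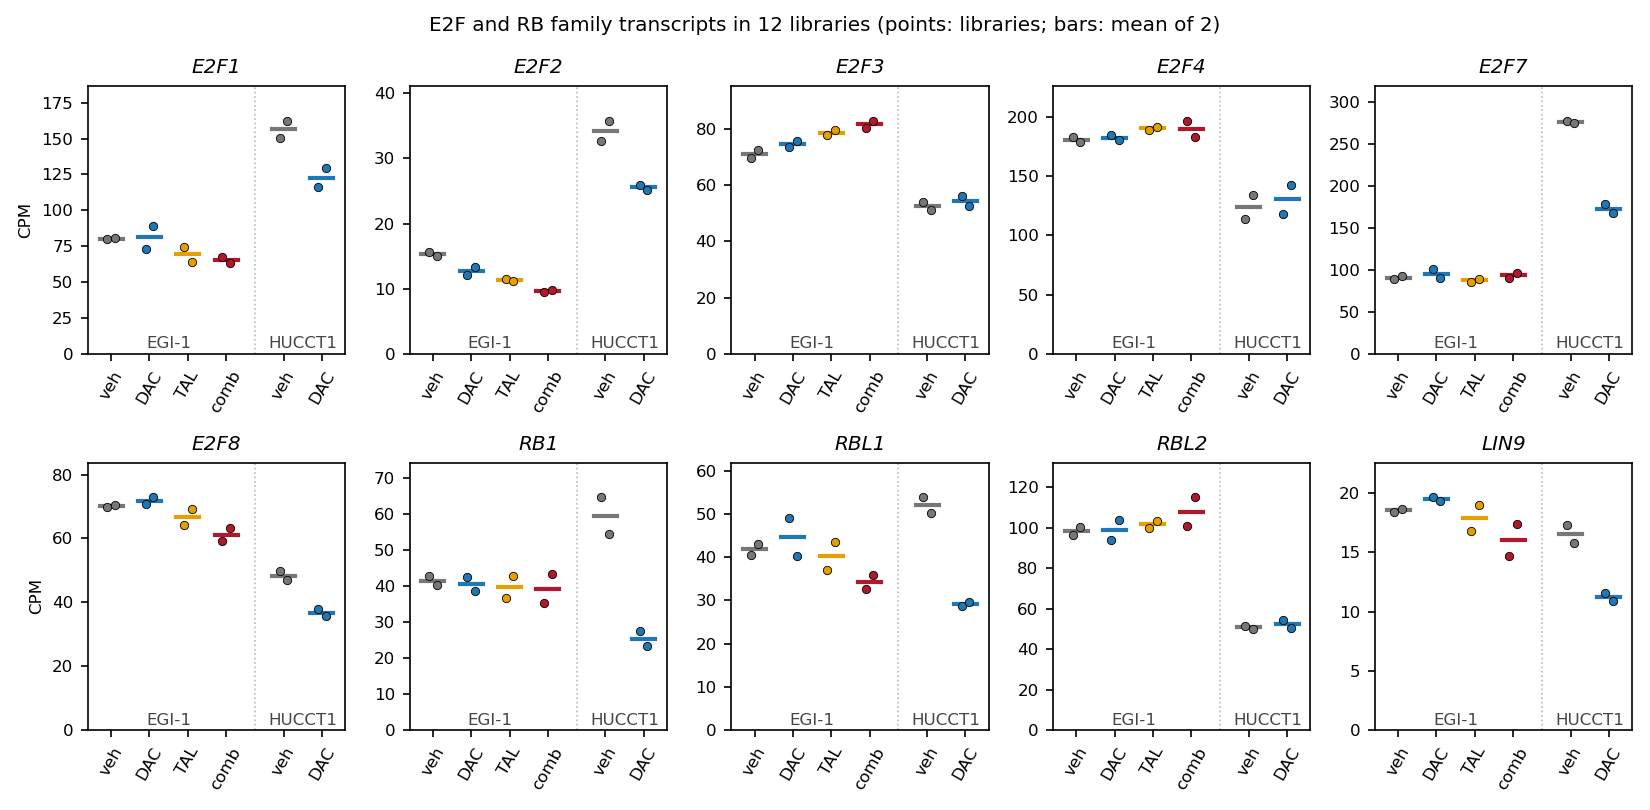
Level of each member in CPM (y axis, from 0) in 12 libraries of 6 groups (x axis; veh vehicle, DAC decitabine, TAL talazoparib, comb both drugs); points are libraries and bars the mean of 2. In HUCCT1 RB1 drops from 64.7 and 54.4 to 27.4 and 23.3 CPM after decitabine, and in EGI-1 E2F2 steps down from 15.6 and 15.1 CPM in vehicle to 9.40 and 9.79 CPM in the combination.

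In EGI-1, decitabine alone left all 10 members short of the threshold. Of all genes 0.544% were called by edgeR (0.518% higher, 0.0268% lower), DESeq2 also called 0 of 10 members, and 1 member, E2F2, had an unadjusted p under 0.05, as had 2048 of 22406 genes. E2F2 stood at 15.6 and 15.1 CPM in vehicle and at 12.2 and 13.4 CPM after decitabine, groups that did not overlap (-0.29 ± 0.107, adjusted p = 0.341). RB1, the member that fell most in HUCCT1, had 42.8 and 40.3 CPM in vehicle and 42.6 and 38.7 CPM after decitabine (-0.058 ± 0.097, 95% interval -0.26 to 0.15). RBL1 had 40.6 and 43.1 CPM against 49.1 and 40.3 CPM, with 1 treated library above and 1 below both vehicle libraries. E2F7 had 88.4 and 92.1 CPM against 101 and 89.8 CPM, and the log2 fold changes of the other 6 members lay between -0.023 and 0.045.

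Talazoparib alone lowered 1 member, E2F2, against a background of 4.12% of genes called, 2.83% higher and 1.29% lower. E2F2 fell to 11.5 and 11.1 CPM, below all 4 vehicle and decitabine libraries, or 0.726 of vehicle (-0.46 ± 0.108, adjusted p = 0.0185). This call was lost without any 1 of the vehicle or talazoparib libraries (adjusted p from 0.0941 to 0.212), with log2 fold changes from -0.49 to -0.43. E2F1 stood at 79.7 and 80.4 CPM in vehicle and at 74.6 and 63.9 CPM after talazoparib, without overlap and short of the threshold (-0.23 ± 0.091, adjusted p = 0.192). It passed without decitabine replicate 1 (-0.24, adjusted p = 0.0333) or decitabine replicate 2 (-0.24, adjusted p = 0.0354), and its value was -0.35 without talazoparib replicate 1 and -0.12 without talazoparib replicate 2. E2F3 stood at 69.7 and 72.7 CPM in vehicle and at 77.9 and 79.6 CPM after talazoparib (0.12 ± 0.064, adjusted p = 0.373).

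The combination lowered 4 of 10 members against vehicle and raised none by edgeR's test, where 18.7% of all genes were called, 11.1% higher and 7.61% lower. These were E2F2, E2F1, RBL1 and E2F8. E2F2 fell to 9.40 and 9.79 CPM, the lowest of the 4 arms, or 0.608 of vehicle (-0.72 ± 0.110, SE, n = 2 per group, adjusted p = 0.000168), and E2F1 to 67.5 and 62.98 CPM, or 0.792 of vehicle (-0.34 ± 0.091, adjusted p = 0.0157). RBL1 fell from 40.6 and 43.1 to 32.6 and 35.9 CPM, or 0.797 of vehicle (-0.33 ± 0.100, adjusted p = 0.0302), and E2F8 from 69.7 and 70.6 to 59.0 and 63.3 CPM, or 0.848 of vehicle (-0.24 ± 0.068, adjusted p = 0.0201). In all 4 genes both combination libraries lay below both vehicle libraries. Marker sums moved in the same arm. From vehicle to combination the biliary sum went from 7721 and 7726 to 8780 and 8799 CPM (3 of 7 markers higher) and the endothelial sum from 19.6 and 20.9 to 28.8 and 30.4 CPM (2 of 3 tested higher). The fibroblast sum went from 28.3 and 30.1 to 43.7 and 50.1 CPM (1 of 1 tested higher), with DCN and LUM at 0 in all 4 libraries. Their part in the result was not tested.

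Without replicate 2 of the combination, the library with leukocyte transcripts, only E2F2 passed the test (-0.74, adjusted p = 0.00288). E2F1 (-0.28, adjusted p = 0.156), RBL1 (-0.39, adjusted p = 0.0628) and E2F8 (-0.28, adjusted p = 0.0513) then missed it with the same sign. Without vehicle replicate 1 or vehicle replicate 2 only E2F2 was called as well, and without combination replicate 1 E2F2 and E2F1 were called. E2F2 passed in all 8 fits that left out 1 EGI-1 library, with values from -0.74 to -0.70. With the replicate number as a block RBL1 had an adjusted p of 0.0573. In each EGI-1 arm 1 library name belongs to the series A-D and 1 to the series B1-B4. Replicate numbers cross these series: vehicle replicate 1 is in A-D and replicate 1 of the other arms in B1-B4. What the series stand for is not stated. With the name series as a block RBL1 had an adjusted p of 0.0509.

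Of the 6 members that did not pass, LIN9 had 18.4 and 18.7 CPM in vehicle and 14.7 and 17.4 CPM in the combination (-0.25 ± 0.105, adjusted p = 0.113), without overlap. E2F3 had 69.7 and 72.7 against 80.5 and 82.9 CPM, also without overlap, and was the member with the highest log2 fold change (0.16 ± 0.064, adjusted p = 0.0975). In a fit of the 4 vehicle and combination libraries alone, E2F3 passed (0.17, adjusted p = 0.0233). E2F4 (183 and 179 against 197 and 183 CPM), E2F7 (88.4 and 92.1 against 89.6 and 96.8 CPM), RB1 (42.8 and 40.3 against 35.3 and 43.3 CPM) and RBL2 (96.6 and 100.5 against 101 and 115 CPM) had log2 fold changes between -0.12 and 0.090. RB1 in replicate 1 of the combination was the lowest of the 8 EGI-1 libraries and in replicate 2 the highest. Together with the fall of RBL1, RBL2 made up 52.9% of the RB family's summed FPKM in the combination and 47.4% in vehicle.

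Against decitabine alone, the combination lowered 4 of 10 members (E2F1, E2F2, E2F8 and RBL1), with 7.68% of all genes called, 4.42% higher and 3.26% lower. The log2 fold changes were -0.33 ± 0.091 for E2F1, -0.42 ± 0.111 for E2F2, -0.25 ± 0.068 for E2F8 and -0.40 ± 0.100 for RBL1 (adjusted p = 0.0365, 0.0255, 0.0337 and 0.0204 in that order). None of the 4 passed in a fit of only these 4 libraries, nor without combination replicate 1 or combination replicate 2 (adjusted p = 0.0503 to 0.258). Without vehicle replicate 1, vehicle replicate 2 or decitabine replicate 2 only RBL1 passed, with E2F1 at -0.18 (adjusted p = 0.204) in the last of these fits, and without decitabine replicate 1 RBL1 missed the threshold (-0.24, adjusted p = 0.156). With the replicate number as a block, E2F1 (adjusted p = 0.0743) and E2F8 (adjusted p = 0.0607) missed it as well. The same 2 genes missed it with the name series as a block (adjusted p = 0.0627 and 0.0611). Against talazoparib alone no member passed, where 1.92% of all genes did, 1.36% higher and 0.567% lower. DESeq2 called 0 as well, and 3 members had an unadjusted p under 0.05 in edgeR, as had 2977 of all 22406 genes: E2F2 (-0.26 ± 0.112), RBL1 (-0.25 ± 0.101) and E2F8 (-0.14 ± 0.068). No member departed from the sum of the single effects by edgeR or DESeq2 (0.161% of all genes did by edgeR, 0.00893% higher and 0.152% lower), and 1, RBL1, had an unadjusted p under 0.05, as had 757 of 22406 genes (-0.32 ± 0.141, unadjusted p = 0.0356, adjusted p = 0.9999). The RBL1 value was -0.17 without decitabine replicate 1 and -0.20 without talazoparib replicate 2. Without combination replicate 2 no member passed against talazoparib or departed from the sum either, and RBL1 (-0.31) and LIN9 (-0.29) had an unadjusted p under 0.05 against talazoparib. The comparisons in EGI-1 share their vehicle, decitabine or combination libraries and are not independent of each other.

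**Figure D3:**
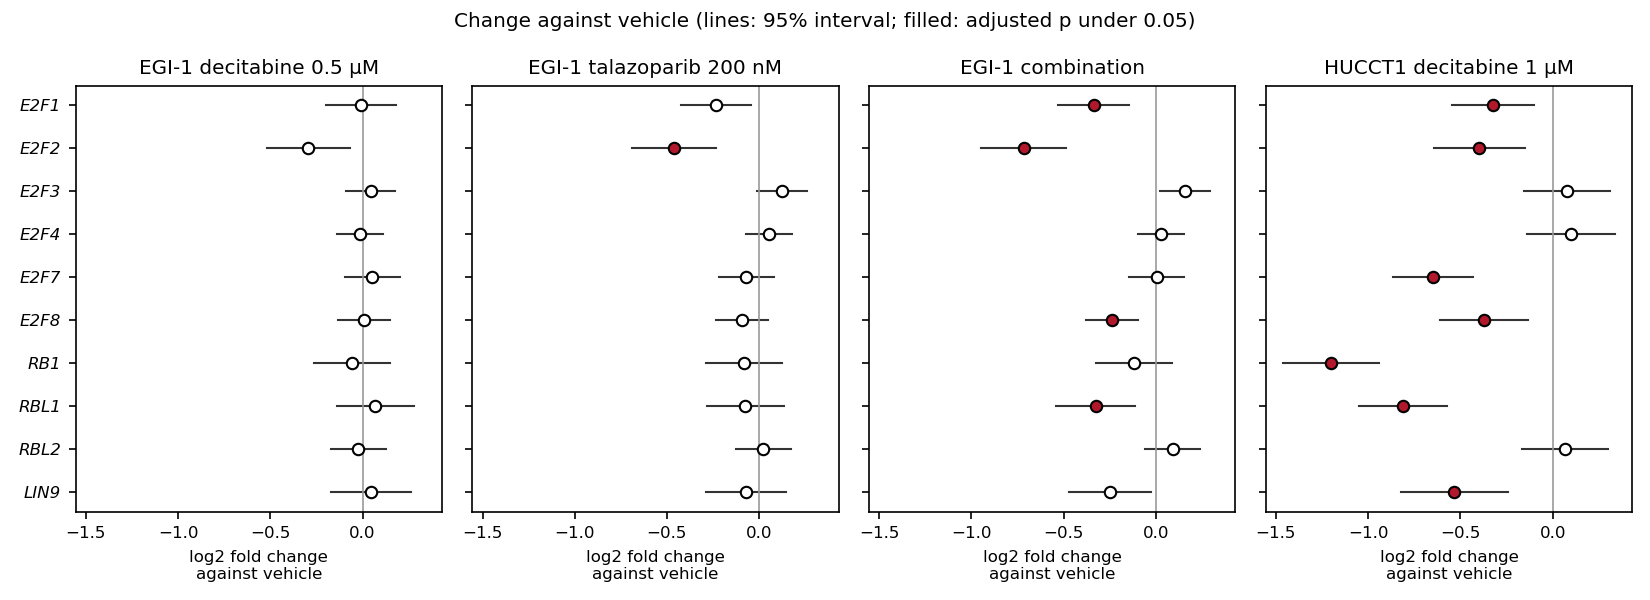
Log2 fold change against vehicle (x axis) of the 10 members (y axis) in 4 comparisons, with 95% intervals as lines; filled points passed an adjusted p of 0.05 in edgeR. Only E2F2 is filled in 3 of the 4 panels, and RB1 is filled in HUCCT1 alone, at -1.20.

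The decitabine effect itself differed between the lines for 5 of 10 members, each lower in HUCCT1, where 15.9% of all genes differed, 8.74% higher and 7.2% lower. The difference of the log2 fold changes, HUCCT1 minus EGI-1, was -1.13 ± 0.160 for RB1 (adjusted p = 3.5e-05), -0.86 ± 0.145 for RBL1 (adjusted p = 0.000227) and -0.69 ± 0.109 for E2F7 (adjusted p = 0.000119). It was -0.56 ± 0.160 for LIN9 (adjusted p = 0.0189) and -0.36 ± 0.113 for E2F8 (adjusted p = 0.0323). For E2F2 it was -0.087 ± 0.147 (95% interval -0.39 to 0.22, adjusted p = 0.775) and for E2F1 -0.30 ± 0.135 (adjusted p = 0.149). E2F1 passed without EGI-1 decitabine replicate 1 (-0.44, adjusted p = 0.0333) and with no filter on low counts (-0.37, adjusted p = 0.0314). E2F3, E2F4 and RBL2 had differences of 0.051 to 0.13 that did not pass. The calls for RB1, RBL1 and E2F7 held in all 12 fits without 1 library. LIN9 missed the threshold without HUCCT1 vehicle replicate 1, HUCCT1 decitabine replicate 2, EGI-1 vehicle replicate 1 or EGI-1 vehicle replicate 2 (adjusted p = 0.0606 to 0.0689), and E2F8 without these or without EGI-1 decitabine replicate 2 (adjusted p = 0.0691 to 0.111). The dose was 1 µM in HUCCT1 and 0.5 µM in EGI-1, so line and dose cannot be told apart.

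Upstream of the pocket proteins, the genes that set RB phosphorylation moved in both directions. This list of 18 holds cyclins D and E, their kinases, CDC25A, SKP2, CKS1B and the kinase inhibitors. In the EGI-1 combination 6 of 15 tested were higher and 4 lower than in vehicle, where 11.1% of all genes were higher and 7.61% lower. Without combination replicate 2 the counts were 5 and 4, and without vehicle replicate 1, vehicle replicate 2 or combination replicate 1 only 1 was lower. CDKN1A, which encodes the inhibitor p21, rose most, from 65.4 and 64.6 CPM to 143 and 143 CPM (log2 fold change 1.09 ± 0.075, adjusted p = 2.2e-08), and it was also higher after decitabine alone (0.44 ± 0.076) and talazoparib alone (0.39 ± 0.076). CCND3, a D-type cyclin, rose from 54.9 and 58.5 to 99.7 and 102 CPM (0.79 ± 0.068), and the kinase gene CDK2 from 61.1 and 60.5 to 93.9 and 99.9 CPM (0.63 ± 0.064). CCNE1 (0.41 ± 0.081), CDC25A (0.37 ± 0.080) and CCND1 (0.17 ± 0.048) were the other 3 that rose. CDKN2C, which encodes the inhibitor p18, fell from 10.8 and 12.6 to 7.23 and 7.71 CPM (-0.69 ± 0.141, adjusted p = 0.00211), and CDKN1B (-0.35 ± 0.079), CKS1B (-0.26 ± 0.075) and SKP2 (-0.25 ± 0.061) fell as well.

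In HUCCT1, decitabine raised 3 of 16 tested genes of this list, a share near the 19.6% of all genes that were higher, and lowered 7, where 13.9% of all genes were lower. Without decitabine replicate 1 it lowered 3. CDKN2C fell from 53.3 and 60.03 to 19.7 and 27.1 CPM (-1.25 ± 0.134, adjusted p = 4.7e-08), while CDKN2D, which encodes the related inhibitor p19, rose from 9.25 and 10.1 to 20.6 and 20.3 CPM (1.11 ± 0.138, adjusted p = 6.0e-07). SKP2, which directs the destruction of p27, fell from 95.4 and 88.5 to 50.1 and 51.4 CPM (-0.83 ± 0.110). CDKN1A (0.64 ± 0.116) and CCND3 (0.35 ± 0.118) rose as in the EGI-1 combination, whereas CDK2 fell (-0.34 ± 0.109), together with CCND1 (-0.43 ± 0.102), CCNE2 (-0.51 ± 0.143), CDKN2B (-0.41 ± 0.112) and CDKN1B (-0.28 ± 0.108). Of the INK4 genes, CDKN2C and CDKN2D were expressed in both lines, whereas CDKN2A and CDKN2B had 0 counts in all 8 EGI-1 libraries, which allows up to 3 counts in each, and 4345 to 7217 and 2487 to 3492 counts in the 4 HUCCT1 libraries. CCND2 was at 0 to 4 counts in 11 libraries and at 22 counts in replicate 2 of the EGI-1 combination.

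Of the 10 DP, MuvB and partner genes, 2 passed the test in the EGI-1 combination, where 18.7% of all genes did, and 2 in HUCCT1, where 33.5% did, so neither share stood out from all genes. In the EGI-1 combination both were lower, DYRK1A, a kinase that assembles DREAM (-0.31 ± 0.061, adjusted p = 0.00154), and the MuvB subunit RBBP4 (-0.21 ± 0.060, adjusted p = 0.0230). In HUCCT1 decitabine lowered TFDP1, the dimer partner of E2F proteins (-0.57 ± 0.108, adjusted p = 0.000180), and FOXM1, which activates G2/M genes (-0.39 ± 0.108, adjusted p = 0.00658). MYBL2, the activating partner of MuvB, had log2 fold changes of 0.068 ± 0.059 and 0.025 ± 0.109 and passed in neither. The other MuvB subunits LIN37, LIN52 and LIN54 also passed in neither comparison. Only 1 gene of the list was lower in the combination without either vehicle library or either combination library, and in HUCCT1 without vehicle replicate 2 or decitabine replicate 2.

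Genes that E2F and MuvB complexes are known to control were described by 2 lists of 30. In the EGI-1 combination 15 of 30 G1/S genes fell and none rose (median log2 fold change -0.27, against -0.025 over all genes), with 7.61% of all genes lower. MCM6 (-0.86 ± 0.060) and MCM5 (-0.80 ± 0.058), subunits of the replicative helicase, fell most, followed by PCNA, the DNA polymerase clamp (-0.61 ± 0.056), and EZH2, a histone methyltransferase (-0.50 ± 0.074). Of 30 G2/M genes 9 fell and none rose (median -0.13), with the proliferation marker MKI67 (-0.47 ± 0.062), the APC/C activator CDC20 (-0.43 ± 0.061), CKS2 (-0.36 ± 0.107) and the kinesin KIF20A (-0.34 ± 0.069) lowest. At an unadjusted p under 0.05, 2 G1/S genes and 0 G2/M genes were higher, and DESeq2 raised none in either list, but 2 G1/S genes rose in each fit without 1 of the decitabine libraries. Without replicate 2 of the combination 14 G1/S and 5 G2/M genes were lower, and without vehicle replicate 1, vehicle replicate 2 or combination replicate 1 the G2/M count was 4 in each fit. Talazoparib alone, after which 1.29% of all genes were lower, lowered 11 of 30 G1/S genes and 0 of 30 G2/M genes by edgeR (3 lower and 1 higher at an unadjusted p under 0.05), and DESeq2 also called 0 G2/M genes. The G1/S count after talazoparib was 3 without vehicle replicate 1, vehicle replicate 2 or talazoparib replicate 2, and 5 without talazoparib replicate 1. Decitabine alone, after which 0.0268% of all genes were lower, lowered 0 G1/S genes by edgeR and by DESeq2 (4 lower and 2 higher at an unadjusted p under 0.05 in edgeR) and 1 G2/M gene, CDC20 (-0.35 ± 0.060, adjusted p = 0.0103).

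In HUCCT1 decitabine lowered 24 of 30 G1/S genes (median -0.46) and 26 of 30 G2/M genes (median -0.55) and raised none in either list by edgeR or DESeq2, nor at an unadjusted p under 0.05, with 13.9% of all genes lower. MCM6 (-0.95 ± 0.108) and MCM5 (-0.87 ± 0.107) again fell most among G1/S genes, followed by ORC1, a subunit of the origin recognition complex (-0.80 ± 0.124), and BRCA1, a DNA repair gene (-0.80 ± 0.112). Among G2/M genes the spindle checkpoint kinase BUB1 (-0.99 ± 0.113), the kinetochore gene CENPF (-0.90 ± 0.112), the spindle motor KIF11 (-0.82 ± 0.126) and the phosphatase gene CDC25C (-0.75 ± 0.134) fell most. The decitabine effect differed between the lines for 18 of 30 G1/S and 15 of 30 G2/M genes, all lower in HUCCT1, where 7.2% of all genes were lower. The lists were chosen with earlier results of these data known, and their counts are descriptions.

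**Figure D4:**
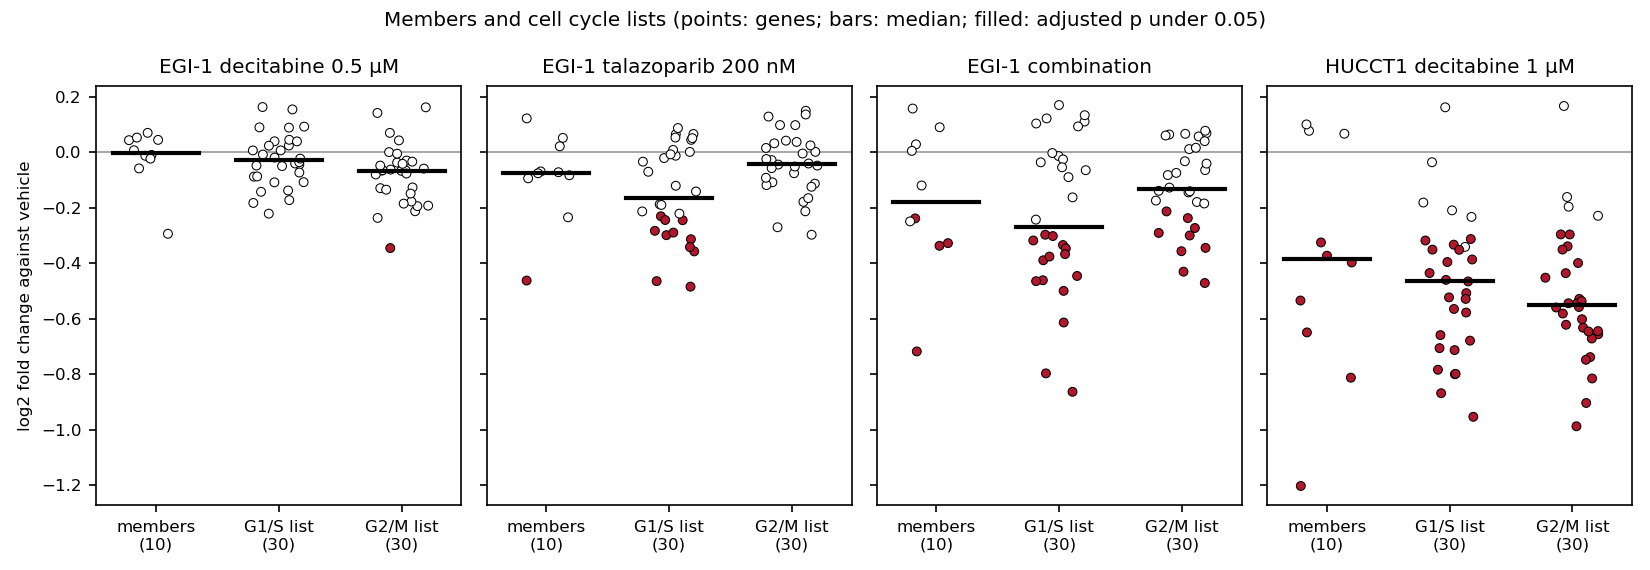
Log2 fold change against vehicle (y axis) of the 10 members, 30 G1/S genes and 30 G2/M genes (x axis) in 4 comparisons; points are genes, bars medians and filled points an adjusted p under 0.05 in edgeR. The medians of the G1/S and G2/M lists are -0.27 and -0.13 in the EGI-1 combination and -0.46 and -0.55 in HUCCT1 after decitabine.

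The level of each member was also ordered over the 6 groups. E2F2 gave 6 groups that did not overlap, from 9.59 ± 0.271 CPM (SD, n = 2) in the EGI-1 combination through talazoparib (11.3 ± 0.288), decitabine (12.8 ± 0.867) and vehicle (15.3 ± 0.374) to HUCCT1 decitabine (25.6 ± 0.502) and HUCCT1 vehicle (34.3 ± 2.13). E2F8 also gave 6 separate groups, from 36.7 ± 1.57 CPM in HUCCT1 decitabine to 71.8 ± 1.41 CPM in EGI-1 decitabine. For RB1 the 4 EGI-1 groups overlapped at means of 39.3 to 41.5 CPM, between HUCCT1 decitabine (25.4 ± 2.89) and HUCCT1 vehicle (59.5 ± 7.26). RBL1 had the same outer groups, with 29.1 ± 0.696 CPM in HUCCT1 decitabine and 52.0 ± 2.56 CPM in HUCCT1 vehicle. For E2F3 every EGI-1 group lay above both HUCCT1 groups, and the 4 EGI-1 groups ran without overlap from vehicle (71.2 ± 2.16) to the combination (81.7 ± 1.69). E2F4 and RBL2 also lay higher in every EGI-1 group than in HUCCT1, with overlaps among the EGI-1 groups, and E2F1 and E2F7 lay lower in every EGI-1 group.

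The genes whose levels ran most alike with a member were found by Pearson's r of log2 CPM over the 12 libraries after each line's mean was removed, among 12416 other genes. These r are descriptions over libraries that share arms and treatments. For RB1 and E2F7 the EGI-1 groups overlapped, so their r mainly follow the contrast of vehicle and decitabine in HUCCT1. RB1 was most like DNAJC13, LUC7L3 and CBX5 (r = 0.996, 0.992 and 0.990), and E2F7 most like VCAN, BICC1 and RNF115 (0.990, 0.985 and 0.980). E2F8 and LIN9 were among the 3 most alike of each other (r = 0.986), with DDX17 first for E2F8 (0.988) and NAA16 first for LIN9 (0.987). RBL1 was most like CTNNAL1 (0.983), E2F1 most like GPT2 (0.982), E2F2 most like LFNG (0.970) and E2F3 most like FBXW11 (0.950). The highest r were lower for E2F4 (KHSRP, 0.912) and RBL2 (GBP2, 0.888).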

How the data were processed

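RNA from 12 samples of 2 established cholangiocarcinoma lines was sequenced by the authors, and raw counts per gene were deposited as 1 table of whole numbers. The submitters' processing notes name fastp, Trim Galore, HISAT2, featureCounts and GRCh38, while the study's methods name STAR and RSEM and describe EGI-1 only, so which aligner and counter made this table was not settled, nor whether counting used strand. A gene that overlaps another can therefore hold reads of both. Of 60651 Ensembl IDs, 60437 matched a symbol. Counts were tested by edgeR 4.0.16 in R 4.3.3 (filterByExpr, TMM factors from 0.868 to 1.08, robust quasi-likelihood F test), in 1 fit of 8 libraries for EGI-1, 1 of 4 for HUCCT1 and 1 of 12 for comparisons of the lines. P-values were adjusted by Benjamini-Hochberg over all genes tested and called below 0.05. Fits were run on simulated data with the same spread between libraries (dispersion) for every gene. It was below the value estimated for HUCCT1 (0.0101), so the HUCCT1 fit was not checked at its own spread. DESeq2 1.42.0, other size factors, no filter, a replicate block, fits of 2 arms and fits without 1 library were alternatives. Levels are CPM, counts scaled to the TMM-adjusted library size, or those per kilobase of merged GENCODE exons (FPKM). Total counts of 23139065 to 34965627 per library gave each member at least 229 counts. The members, lists and tests were chosen with earlier results of these data known. Named list genes were up to 4 with the largest change among those called in each list, and any regulator of RB phosphorylation. CDC20 after decitabine, MYBL2, LIN37, LIN52, LIN54 and the marker genes with counts fall outside this rule and were chosen after their values were seen. List counts without 1 library were added after the data were seen. Some list genes are not reported here by name. With 2 libraries a group, an exact permutation test could not go below p = 0.333.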

Additional observations from a re-analysis of the deposited data

Results flagged for a closer look

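The decitabine effect differed between the cell lines for 5 members by edgeR's test of the difference itself. The log2 fold change in HUCCT1 minus that in EGI-1 was -1.127 for RB1, -0.8647 for RBL1, -0.6851 for E2F7, -0.5617 for LIN9 and -0.363 for E2F8. Each of the 5 was called lower in HUCCT1 and missed the threshold in EGI-1 after decitabine. The dose was higher in HUCCT1 (1 µM against 0.5 µM), so the line and the dose cannot be told apart, and the difference for LIN9 and E2F8 was lost without some single libraries, as given above.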

How the results depend on the processing

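With 2 libraries a group, counts of called genes moved with single libraries. Without 1 library each they ran from 22 to 417 (decitabine), 247 to 1663 (talazoparib), 1850 to 5288 (combination), 853 to 2544 (combination against decitabine), 111 to 1007 (combination against talazoparib) and 27 to 85 (departure from additivity) in EGI-1, and from 2540 to 3865 for the line difference. In the order decitabine, combination against talazoparib and departure, no filter gave 335, 897 and 71 calls. The replicate block gave 60 for decitabine and 249 for combination against talazoparib, the block by name series 75 for decitabine. Fits of only 2 arms gave 43 (decitabine), 1851 (talazoparib), 963 (combination against decitabine) and 700 (combination against talazoparib). The main counts were 122, 923, 1720, 431 and 36 for decitabine, talazoparib, combination against decitabine, combination against talazoparib and departure. Upper-quartile scaling called 2177 genes higher and 2244 lower in the combination (49.2% higher), where TMM gave 2489 and 1705 (59.3%), and no filter gave 44.6% higher in the line difference against 54.8%. The cause was not tested.

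Members that changed sign were small and not called. Upper-quartile scaling gave -0.0236 for E2F8 (EGI-1 decitabine), -0.0068 for E2F4 and -0.0311 for E2F7 (combination), and 0.0046 for E2F3 and 0.0023 for E2F4 (departure), and no filter gave -0.0193 for E2F3 (line difference). Without 1 library each, EGI-1 decitabine ran from -0.0126 to 0.0261 (E2F8), -0.1555 to 0.1239 (E2F1), -0.0354 to 0.1337 (E2F7), -0.0823 to 0.2039 (RBL1), -0.097 to 0.0475 (RBL2), -0.0334 to 0.0064 (E2F4) and -0.1303 to 0.0073 (RB1). Talazoparib ran from -0.0135 to 0.0493 (RBL2), -0.2004 to 0.0141 (RB1), -0.1982 to 0.0254 (RBL1) and -0.1676 to 0.0056 (LIN9). The combination ran from -0.039 to 0.0496 (E2F7), -0.0345 to 0.0927 (E2F4) and -0.2637 to 0.0088 (RB1). Against decitabine it ran from -0.1267 to 0.042 (E2F7), -0.2048 to 0.0672 (RB1) and -0.022 to 0.1057 (E2F4), and against talazoparib from -0.2162 to 0.019 (E2F1), -0.1775 to 0.0944 (RB1), -0.0839 to 0.0439 (E2F4) and -0.0135 to 0.1526 (RBL2). Departure ran from -0.0376 to 0.0325 (E2F3), -0.1187 to 0.1528 (RB1), -0.0242 to 0.1128 (E2F2), -0.0715 to 0.0568 (E2F4), -0.2211 to 0.058 (E2F1) and -0.0552 to 0.1141 (E2F7). E2F4 ran from -0.0345 to 0.2221 in HUCCT1 and -0.0135 to 0.2575 in the line difference, and E2F3 from -0.0058 to 0.0963 in the latter.

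Calls also moved: upper-quartile scaling lost E2F8 in the line difference (adjusted p = 0.0501, edgeR) and called LIN9 lower in HUCCT1 vehicle (0.0259), fits of 2 arms called E2F1 lower after talazoparib (0.0268), and no filter called E2F1 in the line difference (0.0314). Libraries that share a replicate number were not shown to be paired: their deviations correlated at -0.297 to 0.23 in EGI-1 and at 0.295 in HUCCT1. With the replicate number as a block, 10136 genes were called in HUCCT1 against 7525, and RBL1 in the combination missed the threshold (0.0573). The lowest count of a member was 229, in E2F2, and the share of its error due to counting was not tested.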

Other observations

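Genes that carry out apoptosis and have been linked to E2F1 were described by a list of 10. In the EGI-1 combination 2 rose, RASSF1, a tumour suppressor (log2 fold change 0.59 ± 0.087, SE), and PMAIP1, which encodes the BH3-only protein NOXA (0.26 ± 0.070), and MAP3K5, a stress kinase, fell (-0.37 ± 0.092), where 11.1% of all genes were higher and 7.61% lower. These counts were the same without combination replicate 2, and only 1 gene rose without either vehicle library or combination replicate 1. None fell without vehicle replicate 2 or combination replicate 1. In HUCCT1 decitabine raised BBC3, which encodes PUMA (0.91 ± 0.183), and PMAIP1 (0.56 ± 0.122), and lowered TP73, a p53 family gene (-1.13 ± 0.126). The median over the list was 0.0098 and 0.14 in these comparisons, against -0.025 and 0.0020 over all genes.

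Of 12 genes for corepressors that RB proteins recruit, 2 rose in the EGI-1 combination, SIN3B (0.43 ± 0.062) and the deacetylase gene HDAC1 (0.25 ± 0.062), and SIN3A fell (-0.21 ± 0.064), shares near those of all genes (11.1% higher, 7.61% lower). Without combination replicate 2 the counts were 2 and 0, and without either vehicle library or combination replicate 1 they were 1 and 0. In HUCCT1 decitabine raised SIN3B (0.58 ± 0.107) and lowered 5, among them SUV39H1, an H3K9 methyltransferase (-0.96 ± 0.126), SMARCA2, a remodelling ATPase (-0.54 ± 0.109), and HDAC1 (-0.45 ± 0.107), where 13.9% of all genes were lower. Without vehicle replicate 1 or decitabine replicate 2 it lowered 3. SIN3B thus rose in both comparisons and HDAC1 moved in opposite directions.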
